A study of Mus musculus with 18 samples.

Results

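The transcripts described here belong to 10 genes of the cytokine relay that runs from the JAK kinases through STAT5 to its feedback inhibitors. They are the kinases Jak1 and Jak3, the transcription factors Stat5a and Stat5b, the feedback inhibitors Cish, Socs1, Socs2 and Socs3, and the survival kinases Pim1 and Pim2. The genes were chosen by name, with earlier results of these data known. They were found by their Entrez Gene ID among the 27179 genes counted in each of 18 samples. Of the 10 genes, 9 passed a filter on low counts and were tested among 12798 genes in all, and Socs2 was not tested.

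RNA was sequenced from thymocytes with CD69 on their surface, sorted by low or high MHC I. They came from 3 WT (C57BL/6), 3 Hoil ΔCd4 and 3 Sharpin cpdm mice, and each mouse gave both fractions. Thymocytes gain CD69 when their T-cell receptor signals and gain surface MHC I as they mature, so the MHC I high cells are at the later stage. In Hoil ΔCd4 mice (labelled Hoil, on C57BL/6), Cre driven by Cd4 removes the loxP-flanked promoter and first exons of Rbck1, which encodes HOIL-1, from T-lineage cells, while other cells keep the gene. Sharpin cpdm mice (labelled Sharpin) lack SHARPIN in every cell, came from the C57BL/Ka background with a short backcross onto C57BL/6, and were taken before their skin disease was extensive. HOIL-1 and SHARPIN are partners of HOIP in the linear ubiquitin chain assembly complex. The ages of the mice are not given in the sources used here. The sort removed dead cells and cells with CD25, CD44 or markers of other lineages on their surface, so cells with surface CD25, the product of Il2ra, were gated out of every sample.

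The libraries held 10577966 to 16266128 counts each. Levels are given as CPM, the count of a gene scaled to the size of its library. Rbck1 lay at 217 to 268 CPM in WT, and in Hoil ΔCd4 mice at 0.271 to 0.779 CPM in the MHC I low and 3.72 to 8.94 CPM in the MHC I high fraction. The cpdm mutation shifts the reading frame and leaves a transcript, so the level of Sharpin RNA, 66.4 to 77.9 CPM in Sharpin cpdm and 85.9 to 97.3 CPM in WT, does not check that label. All 3 WT mice had the Xist pattern of females, against 1 of 3 in each mutant, and the MHC I high library of Hoil ΔCd4 mouse 2 held 64.6 CPM of Xist beside 339 CPM of the Y-linked Ddx3y. The summed level of 8 T-lineage genes was 4337 to 6106 CPM. Sums over marker lists of other lineages were 2.84 to 10.4 CPM for myeloid and dendritic cells, 6.03 to 11.9 CPM for thymic epithelium and 0.345 to 1.54 CPM for erythroid cells. The sum of 4 NK cell markers was 0.611 to 2.16 CPM in the MHC I low and 30.0 to 53.8 CPM in the MHC I high fraction. Most of it was Nkg7, which CD8 T cells also express, and Ncr1 was at 0 in every sample. Klrd1, another NK list gene, was called lower in Hoil ΔCd4 than in WT MHC I high cells (0.455 to 1.21 against 2.34 to 3.72 CPM), and higher in the MHC I low fraction of Sharpin cpdm mice (at most 0.405 CPM). The sum of 6 B cell markers was 80.4 to 177 CPM, nearly all of it Ighm, which was called higher in the MHC I high fraction of each genotype, while Pax5 was at 0 in all but 2 samples, where it reached 0.0640 CPM. The part of these genes in the results was not tested. Of 17 immediate early and stress genes tested, 0 were called against WT in either fraction of Hoil ΔCd4 mice, and 5 and 6 in the MHC I low and MHC I high fractions of Sharpin cpdm mice. By limma's unadjusted p under 0.05 the Hoil ΔCd4 counts were 5 and 7 and the Sharpin cpdm counts 8 and 9. The shares of all genes called in these comparisons were 0.985%, 6.65%, 12.2% and 8.62%.

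Cytokines such as interleukin-7 bring JAK1 and JAK3 together on paired receptor chains. The kinases phosphorylate STAT5A and STAT5B, which then pair, enter the nucleus and switch on genes that include Cish, the SOCS genes and the PIM kinases. CIS and the SOCS proteins bind receptors or JAKs and shut the signal off, which is why their transcripts are commonly used as a read-out of recent cytokine signalling. In the thymus this relay supports the survival of maturing thymocytes and the choice of the CD8 lineage, and SOCS1 holds it down in cells that are still being selected.

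The promoter windows of the members are shown because STAT dimers bind a short palindrome, TTCNNNGAA, which reads the same on both strands. RefSeq (GRCm38.p6) gave windows of 250 bases before and 50 bases from the annotated start on for 9 of the 10 genes, 12 windows in all, with none for Socs2. The palindrome was present in the windows of 2 genes, Cish and Socs3. Among all 32851 RefSeq windows of the same length, 8.3% held it at least once and 0.457% held it at least 2 times. The Cish window (chr9:107296409-107296708, plus strand) held it 2 times, and the Socs3 window (chr11:117969317-117969616, minus strand) held it once. Capitals mark the palindrome.
Cish: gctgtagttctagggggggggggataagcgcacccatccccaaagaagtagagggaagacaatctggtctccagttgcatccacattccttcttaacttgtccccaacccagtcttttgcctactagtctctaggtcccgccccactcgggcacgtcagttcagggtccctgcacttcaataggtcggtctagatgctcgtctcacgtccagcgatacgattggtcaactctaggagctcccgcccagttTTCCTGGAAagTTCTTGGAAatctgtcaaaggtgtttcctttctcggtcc
Socs3: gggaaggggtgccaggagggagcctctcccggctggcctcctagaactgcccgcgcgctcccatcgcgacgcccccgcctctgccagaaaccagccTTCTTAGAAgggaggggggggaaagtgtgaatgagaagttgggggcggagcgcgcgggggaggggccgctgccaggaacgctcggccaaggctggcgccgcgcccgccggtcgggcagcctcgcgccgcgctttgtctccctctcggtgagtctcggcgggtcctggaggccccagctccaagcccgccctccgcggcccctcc
Counted from the first transcribed base as 1, the Cish matches covered bases 1 to 9 and 12 to 20, with a spacer between them, and the Socs3 match covered bases -154 to -146. The letters were not in the windows of the other 7 genes, which says nothing about binding elsewhere. The kappa B consensus, the motif of NF-κB factors, was searched on both strands and found in 1 window, that of the second Stat5a start, against 4.51% of all windows. No binding was measured in these samples.

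**Figure D1:**
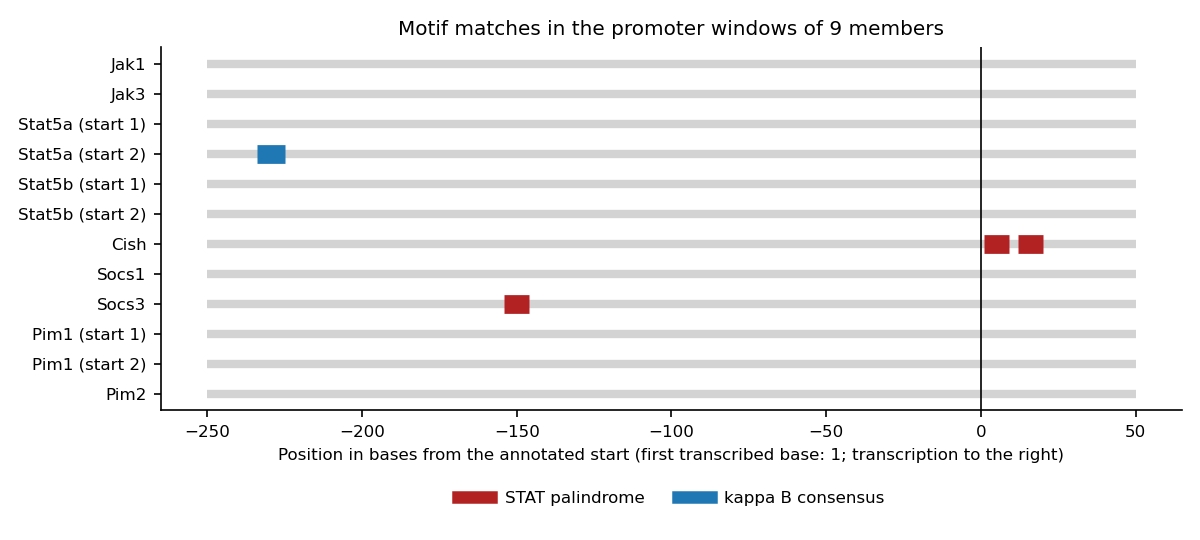
Each grey bar is the promoter window of a gene with a RefSeq window, drawn by position in bases from the annotated start, and coloured blocks are motif matches. The STAT palindrome appears 2 times just after the start of Cish and once before the start of Socs3, and the kappa B consensus once before the second start of Stat5a.

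Levels of different genes were compared per length, as RPKM, the count scaled by gene length and library size. In WT MHC I low cells Jak1 was highest at 182 ± 3.17 RPKM (SD, n = 3), followed by Stat5b at 150 ± 2.41, Socs1 at 98.7 ± 5.46 and Stat5a at 61.6 ± 2.57. Jak3 lay at 44.2 ± 2.45, Pim1 at 24.2 ± 0.767 and Pim2 at 10.4 ± 1.26 RPKM. Cish at 6.92 ± 0.0967 and Socs3 at 1.33 ± 0.326 RPKM were the lowest of the tested genes. All further levels are in CPM and compared within a gene, and fold changes are on the log2(CPM) scale with a prior count of 1.

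The first question was how the 9 tested genes differ between the sorted stages. In WT all 9 were called between MHC I high and MHC I low cells, 5 higher and 4 lower, against 54.4% of all genes tested. In Hoil ΔCd4 mice 8 of 9 were called (45.3% of all genes), and in Sharpin cpdm mice 8 of 9 (54.6%), with Pim1 the gene not called in either. A gene was called where limma's adjusted p was under 0.05. The members' shares were thus above those of all genes, which were themselves large, and no test was made of that difference. The members were chosen with earlier results of these data known, so these shares are a description only.

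**Figure D2:**
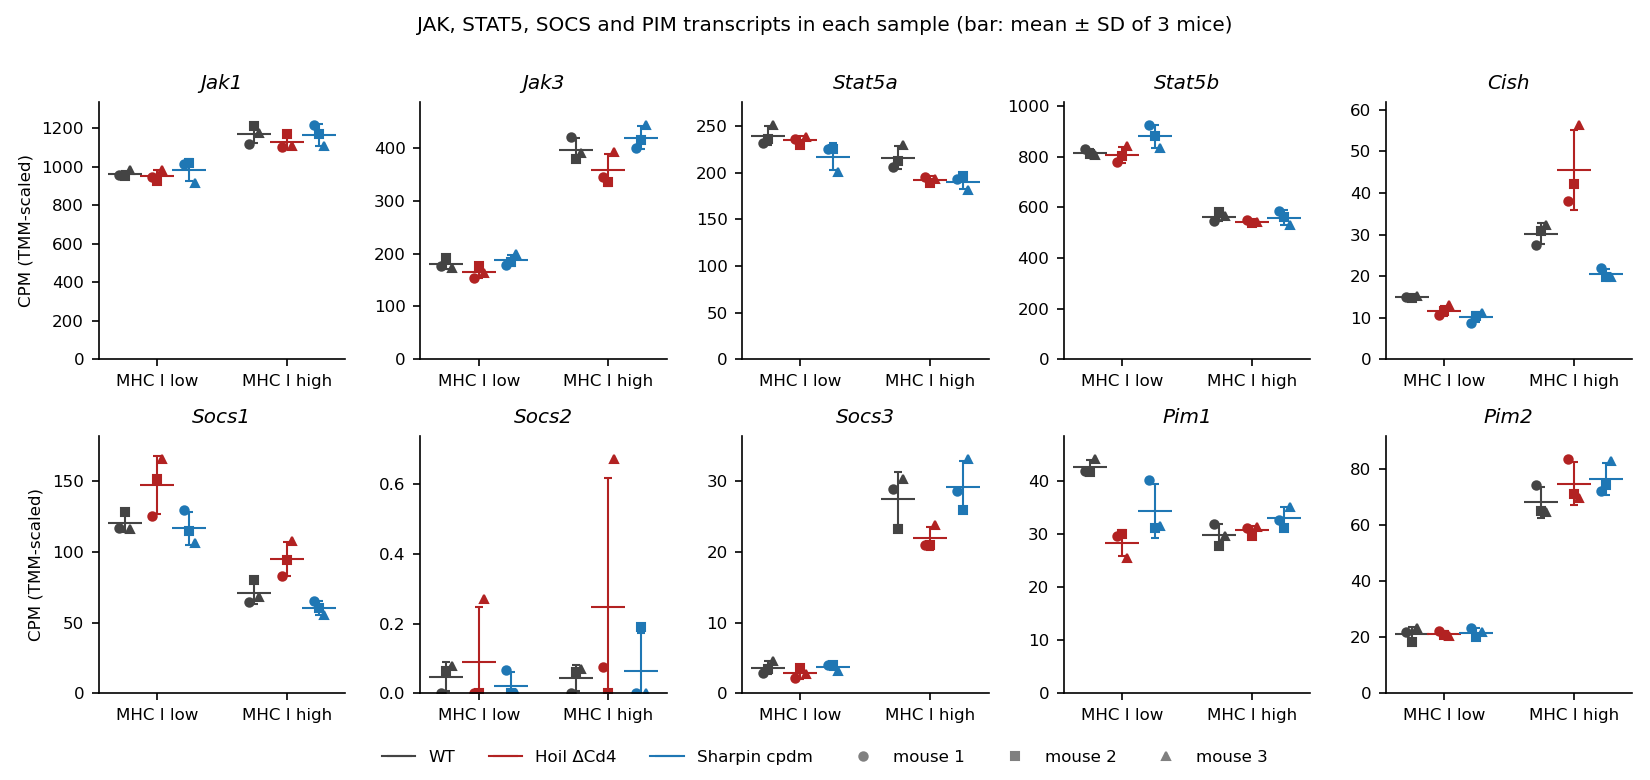
Each panel shows 1 gene in TMM-scaled CPM, with a symbol for each mouse and the mean ± SD of 3 mice, in MHC I low and MHC I high thymocytes. Cish sits at 38.1 to 56.4 CPM in Hoil ΔCd4 MHC I high cells, above the WT range of 27.5 to 32.3, while Sharpin cpdm mice lie below it at 19.7 to 22.0.

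Socs3, an inhibitor induced by many cytokines, had the largest step between fractions of the 9 genes in each genotype. It was at 2.88, 3.39 and 4.61 CPM in the MHC I low cells of WT mice 1, 2 and 3, and at 28.9, 23.2 and 30.3 CPM in their MHC I high cells. All 18 samples together lay at 2.11 to 4.61 CPM in MHC I low and 20.9 to 33.0 CPM in MHC I high cells, so the fractions did not overlap in any genotype. The log2 fold change was 2.98 (SE 0.139) in WT, 2.97 (SE 0.171) in Hoil ΔCd4 and 2.88 (SE 0.146) in Sharpin cpdm mice, or 7.37-fold to 7.89-fold. Socs3 rested on 29 to 463 counts per sample.

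Pim2, a kinase that sustains survival downstream of cytokine receptors, rose 3.15-fold in WT (log2 1.65, SE 0.0726), 3.46-fold in Hoil ΔCd4 and 3.54-fold in Sharpin cpdm mice. It covered 18.4 to 23.4 CPM in all MHC I low samples and 65.0 to 83.7 CPM in all MHC I high samples. Jak3, the kinase of the common gamma chain, rose 2.20-fold in WT, 2.18-fold in Hoil ΔCd4 and 2.25-fold in Sharpin cpdm mice, from 154 to 199 CPM across MHC I low samples to 336 to 443 CPM across MHC I high samples. Jak1, which serves many cytokine receptors, rose by a smaller step, 1.21-fold in WT, 1.18-fold in Hoil ΔCd4 and 1.17-fold in Sharpin cpdm mice. The study stained MHC I with an antibody to H2-Kb, the product of H2-K1, and these fractions therefore differ by design in the genes that accompany MHC I.

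Socs1, Stat5a and Stat5b went the other way. Socs1, the inhibitor that acts on JAK kinases directly, fell 1.73-fold in WT (log2 -0.79, SE 0.0688), 1.53-fold in Hoil ΔCd4 and 1.94-fold in Sharpin cpdm mice. Stat5b fell 1.45-fold in WT, 1.49-fold in Hoil ΔCd4 and 1.58-fold in Sharpin cpdm mice, from 778 to 925 CPM across MHC I low samples to 529 to 586 CPM across MHC I high samples. Stat5a, its close relative, fell by less, 1.09-fold in WT (adjusted p = 0.02394), 1.22-fold in Hoil ΔCd4 and 1.15-fold in Sharpin cpdm mice. The WT call of Stat5a was lost in 4 of 21 alternative analyses, among them the one without WT mouse 1 (adjusted p = 0.06136). Stat5a and Stat5b are neighbours on chromosome 11 and share 387 stretches of 75 bases, the read length, which are 5.12% of those in Stat5a and 6.99% of those in Stat5b, so a part of their reads could have been split between them or dropped. Each of the 9 genes kept its direction between fractions in every mouse with the exception of Pim1.

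**Figure D3:**
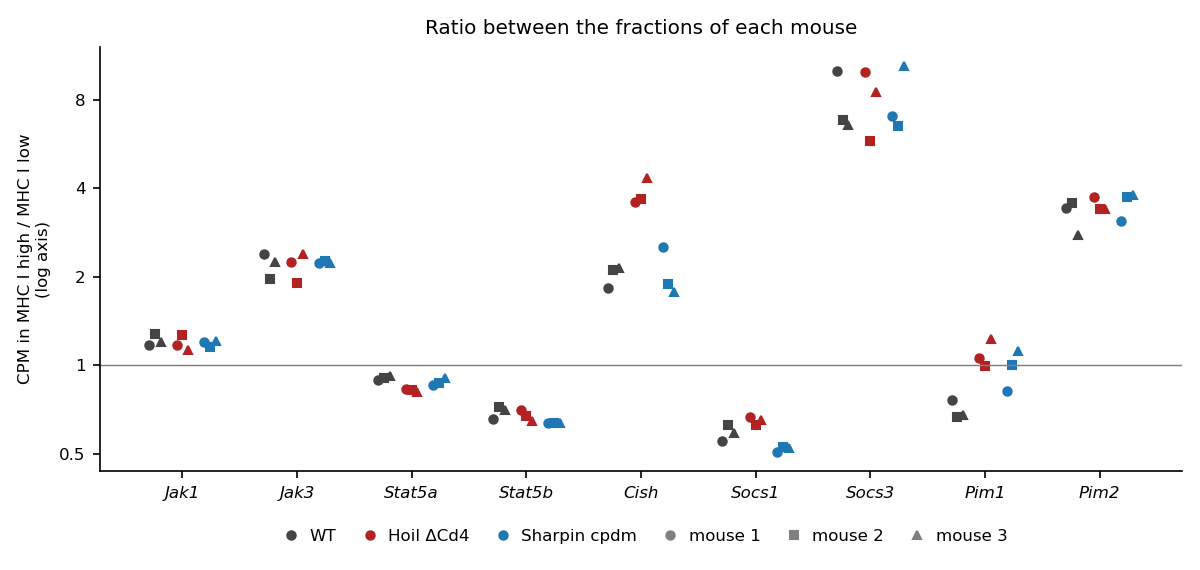
Points give, for each mouse, the CPM of a gene in MHC I high cells over that in MHC I low cells of the same mouse, on a log axis. The Hoil ΔCd4 mice stand above WT for Cish (3.59 to 4.35 against 1.83 to 2.14) and for Pim1 (0.989 to 1.23 against 0.668 to 0.759).

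The second question was how these transcripts differ between each mutant and WT within a fraction. In MHC I low cells 1 of 9 genes was called in Hoil ΔCd4 mice (0.985% of all genes tested) and 2 of 9 in Sharpin cpdm mice (12.2%). In MHC I high cells 3 of 9 were called in Hoil ΔCd4 mice (6.65%) and 2 of 9 in Sharpin cpdm mice (8.62%). Jak1, Jak3, Stat5b, Socs3 and Pim2 were not called against WT in either fraction of either mutant. Both mutants were compared with the same 3 WT mice, so these comparisons are not independent. Sharpin cpdm mice differ from WT in strain background as well as in SHARPIN, and the parts of each cannot be told apart. All WT mice were female by Xist and most mutant mice were not, so sex also overlaps in part with genotype. In sorted cells a lower share of a cell type that expresses a gene and less of its RNA per cell cannot be told apart.

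**Figure D4:**
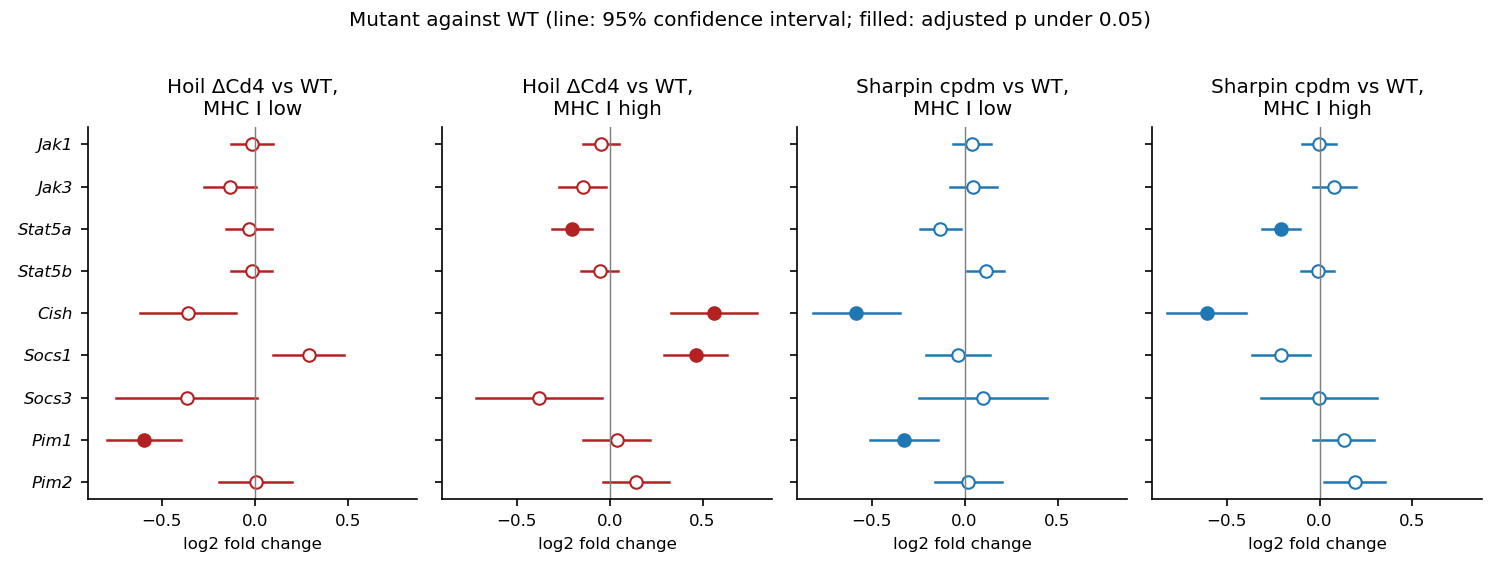
Points are log2 fold changes of each mutant against WT in a fraction, lines are 95% confidence intervals, and filled points have a limma adjusted p under 0.05. Cish lies on the higher side in Hoil ΔCd4 MHC I high cells (0.56) and on the lower side in both fractions of Sharpin cpdm mice (-0.58 and -0.61).

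Cish encodes CIS, the first described member of the SOCS family, and lies at chr9:107296659-107302784 on the plus strand. In MHC I high cells it was at 27.5, 30.9 and 32.3 CPM in WT mice 1, 2 and 3, at 38.1, 42.1 and 56.4 CPM in the Hoil ΔCd4 mice, and at 22.0, 19.8 and 19.7 CPM in the Sharpin cpdm mice. No 2 of these groups overlapped, with Hoil ΔCd4 highest and Sharpin cpdm lowest. The difference from WT was a log2 fold change of 0.56 (SE 0.113, 95% interval 0.33 to 0.79, adjusted p = 0.002262), or 1.48-fold higher, in Hoil ΔCd4 mice. It was -0.61 (SE 0.104, adjusted p = 0.0002191), or 1.52-fold lower, in Sharpin cpdm mice. Between the mutants the difference was 1.17 (SE 0.115, adjusted p = 2.875e-08), or 2.25-fold.

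In MHC I low cells Cish was at 15.0, 14.7 and 15.1 CPM in WT, at 10.6, 11.5 and 13.0 CPM in Hoil ΔCd4 and at 8.72, 10.5 and 11.1 CPM in Sharpin cpdm mice. Both mutants lay below the narrow WT range, and they overlapped each other. The log2 fold change was -0.58 (SE 0.115, adjusted p = 0.0009504) in Sharpin cpdm mice. In Hoil ΔCd4 mice it was -0.36 (95% interval -0.62 to -0.10), which did not pass the threshold (adjusted p = 0.2157).

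The step of Cish between the fractions was therefore compared between genotypes. Within a mouse the ratio was 1.83, 2.10 and 2.14 in WT. It was 3.59, 3.66 and 4.35 in Hoil ΔCd4 mice, all above WT, and 2.52, 1.88 and 1.77 in Sharpin cpdm mice, which overlapped WT. The Hoil ΔCd4 step exceeded that of WT by 0.92 on the log2 scale (SE 0.150, adjusted p = 0.004223) and that of Sharpin cpdm by 0.95 (SE 0.153, adjusted p = 0.001307). The steps of Sharpin cpdm and WT differed by -0.02 (95% interval -0.30 to 0.26, adjusted p = 0.9545). In the analysis described, the change between fractions was called among all genes tested for 0.398% in Hoil ΔCd4 against WT, for 3.13% in Sharpin cpdm against WT and for 0.805% between the mutants. These shares moved with the analysis, the 51 genes behind the first falling to 0 without WT mouse 3, the 400 behind the second to 30 by edgeR and the 103 behind the third to 10 by edgeR. Of the 9 members, 2, 1 and 1 were called in these comparisons, Cish and Pim1 in the first, Pim1 in the second and Cish in the third.

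Single libraries bore on the Cish values. Hoil ΔCd4 mouse 3 had the highest Cish of all, and without it the MHC I high difference from WT was 0.37 (adjusted p = 0.1097) and the difference in step 0.81 (adjusted p = 0.05263). Without WT mouse 3, whose MHC I high library carried the largest quality weight, 2.42, the difference in step from WT was 0.99 (adjusted p = 0.06093) and the Sharpin cpdm difference in MHC I high cells was -0.52 (adjusted p = 0.05111). The difference in Cish step between Hoil ΔCd4 and WT also missed the threshold by edgeR's quasi-likelihood test (0.93, adjusted p = 0.06893) and without the filter on low counts (0.92, adjusted p = 0.05416). Without Hoil ΔCd4 mouse 2, whose MHC I high library held both Xist and Ddx3y, the calls of Cish stood. The difference between the mutants in MHC I high cells was called in 21 of 21 alternatives, over 0.98 to 1.26. Hoil ΔCd4 mouse 3 is the female of its group, the 2 males were at 38.1 and 42.1 CPM, and the WT mice were all female. Between these males and WT, sex and genotype cannot be told apart. A part of the reads of Cish could come from an antisense transcript, Gm17041, that overlaps 479 bases of its exons.

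Marker genes of other thymocyte stages moved with these groups. In Hoil ΔCd4 MHC I high cells 5 of 6 markers of the double-positive stage were called higher than in WT (6.65% of all genes). Their median log2 fold change was 0.99, and their sum was 944 to 1285 CPM against 945 to 1040 CPM. In Sharpin cpdm MHC I high cells 4 of 6 were called higher (8.62% of all genes), while Cish was lower. Their median log2 fold change was 0.58 and their sum 1075 to 1317 CPM. The 6 markers include Cd8a, which CD8 single-positive cells also express. In WT the sum was higher in MHC I high than in MHC I low cells, while the median log2 change of the 6 was -0.23. The sum of 5 mature single-positive markers was 950 to 975 CPM in Hoil ΔCd4, 1083 to 1189 CPM in Sharpin cpdm and 1118 to 1180 CPM in WT MHC I high cells. Hoil ΔCd4 mouse 3 also had the highest Cd69 of its fraction in both fractions, 161 and 464 CPM, and the lowest H2-K1 of the MHC I low samples, 157 CPM. In MHC I low cells the mature single-positive sum did not overlap between genotypes. It was 532 to 583 CPM for Hoil ΔCd4, 628 to 651 CPM for WT and 750 to 771 CPM for Sharpin cpdm. The double-positive sum there was 539 to 609, 512 to 536 and 416 to 475 CPM in the same order, also without overlap. Single double-positive markers were seldom called against WT at this stage. For Hoil ΔCd4 the count was 0 of 6, beside 0.985% of all genes. For Sharpin cpdm it was 1 of 6, Rag2, which was lower, beside 12.2% of all genes. By limma's unadjusted p under 0.05 both counts were 2. The 5 mature markers include Il7r, whose levels, given below, made up most of the mature sum in MHC I low cells. Among the 5, only Il7r was called in either fraction of Hoil ΔCd4 mice and in Sharpin cpdm MHC I high cells. In WT Il7r fell between the fractions (log2 -0.44), while the other 4 rose. The part of these shifts in the values of Cish, Socs1 and Pim1 was not tested.

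Socs1 lies at chr16:10783808-10785536 on the minus strand. In MHC I high cells it was at 64.7, 79.9 and 68.3 CPM in WT, at 83.1, 94.3 and 107 CPM in Hoil ΔCd4 and at 65.2, 60.0 and 55.2 CPM in Sharpin cpdm mice. All Hoil ΔCd4 values were above both other groups, which overlapped each other. Against WT the log2 fold change in Hoil ΔCd4 mice was 0.46 (SE 0.0824, 95% interval 0.29 to 0.63, adjusted p = 0.0009447), or 1.38-fold, and against Sharpin cpdm it was 0.67 (SE 0.0835, adjusted p = 7.344e-06), or 1.59-fold. The Sharpin cpdm difference from WT was -0.20 (adjusted p = 0.09341) and did not pass the threshold in the main analysis, but did without Sharpin cpdm mouse 1 (-0.26, adjusted p = 0.04389) and without Hoil ΔCd4 mouse 1 (-0.21, adjusted p = 0.04178). The Hoil ΔCd4 call against WT did not hold when WT mouse 1 (0.36, adjusted p = 0.07574) or WT mouse 3 (0.41, adjusted p = 0.1012) was left out, and by edgeR it lay at the threshold (0.41, adjusted p = 0.05073).

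In MHC I low cells Socs1 was at 117, 128 and 116 CPM in WT, at 125, 151 and 165 CPM in Hoil ΔCd4 and at 129, 114 and 106 CPM in Sharpin cpdm mice. The lowest Hoil ΔCd4 mouse fell within the range of both other groups. The difference from WT was 0.29 (95% interval 0.10 to 0.48, adjusted p = 0.1577), and without Hoil ΔCd4 mouse 1 it was 0.40 (adjusted p = 0.01559). Hoil ΔCd4 exceeded Sharpin cpdm by 0.33 (SE 0.0943, adjusted p = 0.02902), a call that 8 of 21 alternatives lost, among them those without Hoil ΔCd4 mouse 2 (0.30, adjusted p = 0.1167), Hoil ΔCd4 mouse 3 (0.24, adjusted p = 0.1323), Sharpin cpdm mouse 2 (0.32, adjusted p = 0.1154) and Sharpin cpdm mouse 3 (0.27, adjusted p = 0.1115). The step of Socs1 between fractions did not pass the threshold between genotypes, at 0.17 for Hoil ΔCd4 against WT (95% interval -0.05 to 0.40) and -0.17 for Sharpin cpdm against WT (95% interval -0.37 to 0.04). Between Hoil ΔCd4 and Sharpin cpdm it was 0.34 (95% interval 0.11 to 0.57, adjusted p = 0.1271). It passed with each mouse as a fixed block (0.33, adjusted p = 0.009146).

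Between the mutants 1 of 9 genes, Socs1, passed the threshold in the MHC I low fraction (9.48% of all genes), and 3 of 9, Cish, Socs1 and Jak3, in the MHC I high fraction (6.73%). Jak3 was at 345, 336 and 392 CPM in Hoil ΔCd4 and at 400, 415 and 443 CPM in Sharpin cpdm MHC I high cells, without overlap. The log2 difference was -0.23 (SE 0.0618, adjusted p = 0.02286). It was not called without Hoil ΔCd4 mouse 1 (-0.21, adjusted p = 0.05855), Hoil ΔCd4 mouse 2 (-0.18, adjusted p = 0.1778), Sharpin cpdm mouse 2 (-0.24, adjusted p = 0.09418) or Sharpin cpdm mouse 3 (-0.19, adjusted p = 0.1233). The WT mice, at 420, 378 and 390 CPM, overlapped both. Jak3 shares 404 exonic bases with Insl3 on the same strand, so a part of its reads is uncertain.

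Socs3 did not differ between genotypes beyond the threshold. In MHC I high cells it was at 20.9, 21.0 and 23.7 CPM in Hoil ΔCd4, and at 28.6, 25.9 and 33.0 CPM in Sharpin cpdm mice, beside the WT values above. The Hoil ΔCd4 values lay at the low end, with a log2 fold change of -0.38 against WT (95% interval -0.72 to -0.04, adjusted p = 0.1721). This difference passed when only the compared groups were fitted (-0.39, adjusted p = 0.03231), as did the one of -0.38 between Hoil ΔCd4 and Sharpin cpdm (-0.36, adjusted p = 0.04703).

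Socs2, which curbs growth hormone signalling in other tissues, was hardly detected. Its counts added up to 20 over all samples, 9 of 18 samples were at 0, and the highest library, Hoil ΔCd4 mouse 3 MHC I high, had 7 counts (0.672 CPM). A count of 0 allows up to 3 counts, or 0.188 to 0.288 CPM at these depths, for counting error only. No difference in Socs2 was detectable at this depth, and without the filter on low counts its adjusted p was 0.5383 or more in every comparison.

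Pim1, a kinase induced by STAT5 and by other signals, lies at chr17:29490785-29496111 on the plus strand. In MHC I low cells it was at 41.9, 41.6 and 44.1 CPM in WT, at 29.6, 30.0 and 25.5 CPM in Hoil ΔCd4 and at 40.1, 31.2 and 31.5 CPM in Sharpin cpdm mice. Every mutant mouse lay below every WT mouse, Sharpin cpdm mouse 1 by little. The log2 fold change was -0.60 (SE 0.0976, 95% interval -0.79 to -0.40, adjusted p = 0.0004634), or 1.51-fold lower, in Hoil ΔCd4 mice, and it was called in 21 of 21 alternatives, over -0.71 to -0.51. In Sharpin cpdm mice it was -0.33 (SE 0.0890, adjusted p = 0.01488), or 1.25-fold lower.

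In MHC I high cells Pim1 was not called against WT. It was at 31.8, 27.8 and 29.7 CPM in WT, at 31.1, 29.7 and 31.3 CPM in Hoil ΔCd4 and 32.6, 31.2 and 35.2 CPM in Sharpin cpdm mice, with overlap of each mutant with WT. Pim1 thus fell between the fractions in WT, by 0.51 on the log2 scale (SE 0.0732, adjusted p = 6.15e-07). The same difference was 0.12 (95% interval -0.06 to 0.31, adjusted p = 0.2797) in Hoil ΔCd4 and -0.05 (95% interval -0.21 to 0.10, adjusted p = 0.5655) in Sharpin cpdm mice. The step differed from that of WT by 0.63 in Hoil ΔCd4 (SE 0.116, adjusted p = 0.008047) and by 0.46 in Sharpin cpdm mice (SE 0.106, adjusted p = 0.01415), and between the mutants by 0.18 (95% interval -0.06 to 0.42, adjusted p = 0.4998).

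The Pim1 results of the Sharpin cpdm mice leaned on single mice. The MHC I low difference was -0.30 (adjusted p = 0.0822) without WT mouse 3, -0.26 (adjusted p = 0.1386) without Sharpin cpdm mouse 2 and -0.27 (adjusted p = 0.08992) without Sharpin cpdm mouse 3. The difference in step between Sharpin cpdm and WT was not called without WT mouse 2 (0.43, adjusted p = 0.06279), WT mouse 3 (0.43, adjusted p = 0.1147), Sharpin cpdm mouse 2 (0.44, adjusted p = 0.06651) or Sharpin cpdm mouse 3 (0.36, adjusted p = 0.1454). For Hoil ΔCd4 against WT the step was not called without WT mouse 3 (0.61, adjusted p = 0.1402) or Hoil ΔCd4 mouse 3 (0.53, adjusted p = 0.1531). By edgeR the adjusted p of the Pim1 step against WT was 0.1106 for Hoil ΔCd4 and 0.1322 for Sharpin cpdm, and without the block for the mouse it was 0.05366 and 0.05817. Pim1 overlaps the antisense gene Gm26885 over 488 exonic bases, and whether reads were counted by strand is not given in the sources used here.

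**Figure D5:**
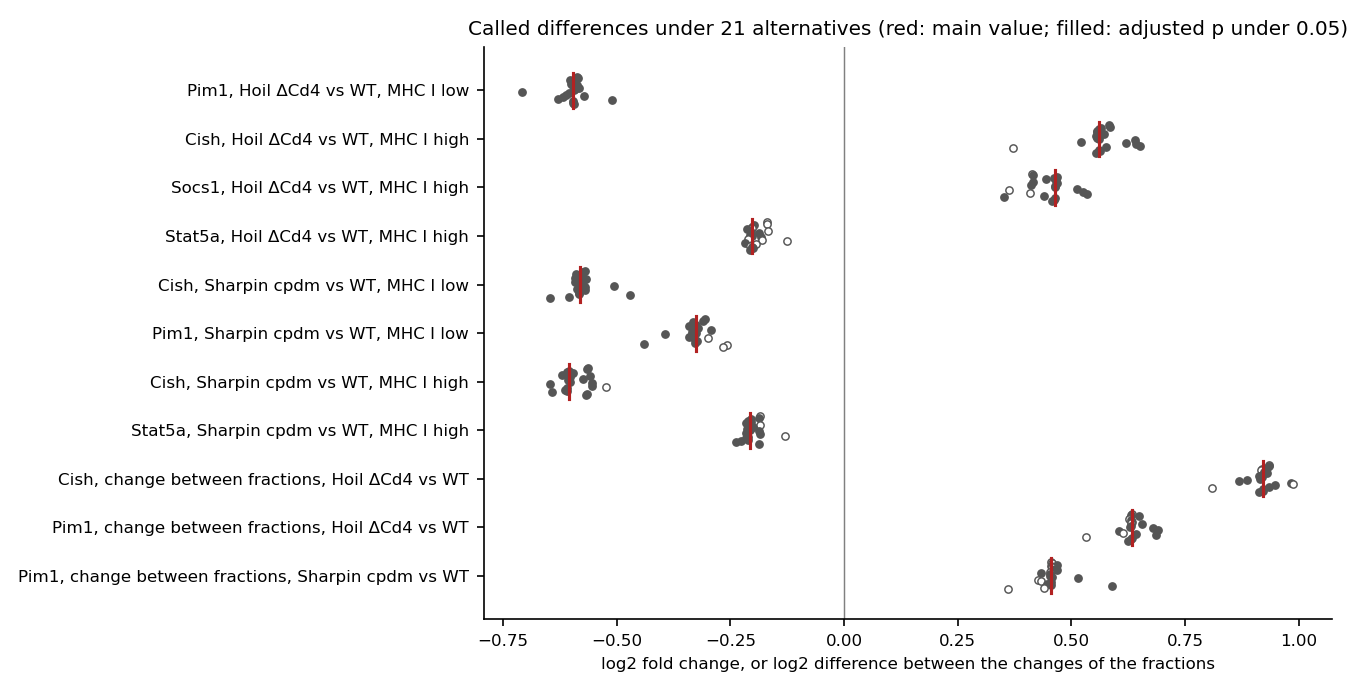
Each row is a difference that was called, on the log2 scale, with a red line at the main value and a point for each of 21 alternative analyses, filled where the adjusted p was under 0.05. Points stay on the side of the main value in every row, and the open points are most frequent for Stat5a in Hoil ΔCd4 MHC I high cells (9 of 21).

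Stat5a was at 206, 213 and 230 CPM in WT, at 196, 189 and 193 CPM in Hoil ΔCd4 and 193, 196 and 182 CPM in Sharpin cpdm MHC I high cells. Both mutants lay below WT by a small step. The log2 fold change was -0.20 (SE 0.0534, adjusted p = 0.0192) in Hoil ΔCd4 and -0.21 (SE 0.0490, adjusted p = 0.006166) in Sharpin cpdm mice. Without WT mouse 3 these were -0.12 (adjusted p = 0.4991) and -0.13 (adjusted p = 0.3916). The Hoil ΔCd4 call was also lost without each of WT mouse 1 (adjusted p = 0.08649), WT mouse 2 (0.0558), Hoil ΔCd4 mouse 2 (0.1489) and Hoil ΔCd4 mouse 3 (0.0989), and by edgeR (0.1152) and DESeq2 (0.09347). By edgeR the Sharpin cpdm difference in Stat5a had an adjusted p of 0.06723. Stat5b, the more abundant of the pair, differed from WT by -0.05 (95% interval -0.15 to 0.04) in Hoil ΔCd4 and by -0.01 (95% interval -0.10 to 0.08) in Sharpin cpdm MHC I high cells.

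Neither JAK kinase was called against WT. Jak1 lay at 918 to 1020 CPM in all MHC I low and 1105 to 1217 CPM in all MHC I high samples, and its 4 log2 differences from WT ran from -0.05 to 0.04, with 95% intervals within -0.15 to 0.14. Jak3 differed from WT by -0.15 (95% interval -0.27 to -0.02, adjusted p = 0.1508) in Hoil ΔCd4 and by 0.08 (95% interval -0.03 to 0.19) in Sharpin cpdm MHC I high cells. For Pim2 the difference from WT in MHC I high cells was 0.14 (95% interval -0.04 to 0.32) in Hoil ΔCd4 and 0.19 (95% interval 0.03 to 0.35, adjusted p = 0.1428) in Sharpin cpdm mice.

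The order of the 6 group means differed between genes. For Socs3, Jak1, Jak3 and Pim2 the 3 MHC I low groups came below the 3 MHC I high groups, and neighbours overlapped except at the border between fractions. For Cish the order from the lowest was Sharpin cpdm, Hoil ΔCd4 and WT MHC I low, then Sharpin cpdm, WT and Hoil ΔCd4 MHC I high, and of these neighbours only both mutants in MHC I low overlapped. For Pim1 the neighbours in the order overlapped, except that WT MHC I low stood alone at the top.

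The receptor chains upstream of JAK1, JAK3 and STAT5 moved in different ways. Il7r, the interleukin-7 receptor, was at 390, 367 and 394 CPM in WT, at 314, 317 and 325 CPM in Hoil ΔCd4 and 461, 473 and 451 CPM in Sharpin cpdm MHC I low cells. The 3 groups did not overlap, with Hoil ΔCd4 below and Sharpin cpdm above WT. There the log2 fold change of Il7r against WT was -0.27 (SE 0.0559, adjusted p = 0.008069) for Hoil ΔCd4 and 0.27 (SE 0.0510, adjusted p = 0.0005179) for Sharpin cpdm. In the MHC I high fraction the same differences were -0.18 (adjusted p = 0.02352) and 0.26 (adjusted p = 0.0003559). Hoil ΔCd4 minus Sharpin cpdm was -0.54 (MHC I low, adjusted p = 1.469e-07) and -0.44 (MHC I high, adjusted p = 6.176e-07). Cish and Il7r were thus on opposite sides of WT in both mutants in MHC I high cells, whereas in MHC I low cells both were lower in Hoil ΔCd4 mice, Cish without a call. The Il7r call in the MHC I high fraction of Hoil ΔCd4 mice was lost in 5 of 21 alternatives, among them those without WT mouse 1 (adjusted p = 0.1577), WT mouse 3 (0.1542) or Hoil ΔCd4 mouse 2 (0.236). The call in their other fraction was lost without WT mouse 1 (0.0734) or WT mouse 3 (0.06524), and that of Sharpin cpdm in the MHC I high fraction without WT mouse 3 (0.05444).

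Il2ra, the alpha chain of the interleukin-2 receptor, was at 15.0, 12.3 and 20.5 CPM in WT, at 7.70, 4.84 and 6.11 CPM in Hoil ΔCd4 and 5.47, 7.06 and 5.35 CPM in Sharpin cpdm MHC I low cells. Each mutant lay below WT. Its log2 fold change was -1.34 (SE 0.193, adjusted p = 8.757e-05) and -1.37 (SE 0.176, adjusted p = 2.977e-06), and the MHC I high fraction gave -1.10 and -1.11, all 4 called in 21 of 21 alternatives. Il2ra is also a marker of regulatory T cells, of whose 5 markers 2 to 3, Il2ra among them, were called lower in each comparison. The shares of all genes called were 0.985% to 12.2%. In MHC I low cells their sum was 876 to 1084 CPM for WT, 1002 to 1130 CPM for Hoil ΔCd4, where Il2ra was lower, and 557 to 617 CPM for Sharpin cpdm. It was 609 to 707 CPM for WT, 500 to 638 CPM for Hoil ΔCd4 and 447 to 503 CPM for Sharpin cpdm MHC I high cells, and their part in these values was not tested. Il2rb, the beta chain shared by the interleukin-2 and interleukin-15 receptors, rose between the fractions 5.47-fold in WT, 6.33-fold in Hoil ΔCd4 and 5.62-fold in Sharpin cpdm mice. It was higher in Hoil ΔCd4 than in WT MHC I high cells by 0.28 (SE 0.0725, adjusted p = 0.01772), at 157, 165 and 154 against 131, 143 and 129 CPM, a call lost in 7 of 21 alternatives, among them those without WT mouse 1 (adjusted p = 0.2725), WT mouse 3 (0.3616), Hoil ΔCd4 mouse 2 (0.1987) or Hoil ΔCd4 mouse 3 (0.06364). Il2rg, the common gamma chain that binds JAK3, was not called against WT in either fraction, with log2 differences of -0.05 to 0.10.

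The rest of the pathway was counted in 6 lists of 73 genes. The counts that follow stand beside shares of all genes called of 0.985% and 6.65% for Hoil ΔCd4 and 12.2% and 8.62% for Sharpin cpdm, MHC I low first. Of 21 receptor genes tested, 2 were called in Hoil ΔCd4 MHC I low (both lower), 5 in Hoil ΔCd4 MHC I high (2 higher, 3 lower), and, for Sharpin cpdm, 7 in the MHC I low fraction (3 up, 4 down) and 3 in the MHC I high fraction (1 up, 2 down). The median log2 fold change of the receptors was -0.07, -0.11, -0.13 and 0.02 in these comparisons, against medians of all genes within 0.01 of 0. Ifngr1, a chain of the interferon-γ receptor, was higher by 0.30 in the MHC I high fraction of Hoil ΔCd4 mice (adjusted p = 0.006558), a call lost without WT mouse 1 (adjusted p = 0.147), WT mouse 3 (0.1102) or Hoil ΔCd4 mouse 3 (0.1701). Of the 3 cytokine genes tested and the 4 partners of the SOCS box ubiquitin ligase, none was called by limma in these 4 comparisons. At an unadjusted p under 0.05 there were 2, 1, 0 and 1 cytokine genes and 0, 0, 0 and 1 ligase partners.

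Among the other JAK and STAT genes, Stat4, which relays interleukin-12, was lower in Sharpin cpdm mice, with a log2 fold change of -0.47 in the MHC I low fraction (adjusted p = 0.001186). In the other fraction it was -0.27 (adjusted p = 0.04837), a call lost in 13 of 21 alternatives, among them those without each WT mouse (adjusted p = 0.7587 without WT mouse 3), Hoil ΔCd4 mouse 3 (0.05472), Sharpin cpdm mouse 2 (0.4604) or Sharpin cpdm mouse 3 (0.2856). Of 16 other inhibitors, limma called 0 in either fraction of Hoil ΔCd4 mice (1 and 2 at an unadjusted p under 0.05), and for Sharpin cpdm 3 in the MHC I low and 1 in the MHC I high fraction, beside 12.2% and 8.62% of all genes. Among them Socs4, a further SOCS gene, was lower by 0.41 (adjusted p = 0.0002187) and Pias4, a ligase that restrains STATs, higher by 0.31 (adjusted p = 0.003751) in Sharpin cpdm MHC I low cells. Cblb, a ubiquitin ligase that dampens receptor signals, was lower by 0.24 in Sharpin cpdm MHC I high cells (adjusted p = 0.01278), a call lost in 8 of 21 alternatives, among them those without WT mouse 1 (adjusted p = 0.2027), WT mouse 3 (0.6236) or Sharpin cpdm mouse 3 (0.08651).

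Of 13 genes known as STAT5 targets elsewhere, 2, 2, 2 and 3 were called in the same 4 comparisons, in the order Hoil ΔCd4 and then Sharpin cpdm, each with MHC I low first. Over the comparisons the calls went in both directions, beside the shares of all genes given above. Mcl1, a survival factor of the BCL-2 family, was lower in both fractions of Sharpin cpdm mice, with log2 fold changes of -0.39 (MHC I low, adjusted p = 2.098e-05) and -0.47 (MHC I high, adjusted p = 1.859e-07), called in 21 of 21 alternatives each. Myc, which drives growth, had a log2 fold change of -0.43 in the MHC I low fraction of Hoil ΔCd4 mice (adjusted p = 0.01359). This call was lost with Xist as a covariate (adjusted p = 0.05019) and without WT mouse 3 (0.05639) or Hoil ΔCd4 mouse 3 (0.05949). In the MHC I high fraction of Sharpin cpdm mice the log2 fold change of Myc was 0.33 (adjusted p = 0.00506). That call was lost by edgeR (adjusted p = 0.1255), by DESeq2 (0.1053) and without quality weights (0.117). It was also lost without WT mouse 1 (0.2115), WT mouse 3 (0.265) or Sharpin cpdm mouse 2 (0.1306). Bcl6, a repressor that STAT5 is known to repress, was higher by 0.31 in the MHC I low fraction of Hoil ΔCd4 mice (adjusted p = 0.03014). The Bcl6 call was lost without the filter on low counts (adjusted p = 0.07468). It was also lost without any 1 of the WT mice, Hoil ΔCd4 mouse 2 (0.1566) or Hoil ΔCd4 mouse 3 (0.1633). The cyclin genes Ccnd3 (0.19 in Hoil ΔCd4 MHC I high, adjusted p = 0.03677) and Ccnd2 (0.22 in Sharpin cpdm MHC I low, adjusted p = 0.02105) were higher, and were called in 11 and 12 of 21 alternatives. Without WT mouse 3 their adjusted p was 0.7578 and 0.1201, and without WT mouse 1 it was 0.403 and 0.09962. The Ccnd3 call was also lost without Hoil ΔCd4 mouse 2 or 3, and the Ccnd2 call without Sharpin cpdm mouse 1 or 2.

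The non-member genes most like each member over the 18 samples were taken by Pearson's r of log2 CPM, as a description. The samples share mice and fall into 2 fractions, so a gene that differs strongly between fractions has many close companions. For Socs3 the closest were Clcf1 (r = 0.992) and Rgs11, for Pim2 Stk10 (r = 0.993) and Nod1, for Jak3 Adgrg5 (r = 0.990) and H2-D1, and for Stat5b Lrp10 (r = 0.990) and St3gal2. H2-D1 encodes an MHC I heavy chain, the kind of protein used for the sort. For Jak1 the closest were Stk4 (r = 0.976) and Ppm1b, for Socs1 Cd24a (r = 0.961) and Tmcc3, and for Stat5a Ntn1 (r = 0.951) and Smad5. Cish, whose levels separated the fractions and, in MHC I high cells, the genotypes, was closest to Mcmbp (r = 0.936) and Tgtp2 (r = 0.923). Pim1 had the least close companions, Clip3 (r = 0.762) and Chd8 (r = 0.685).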

How the data were processed

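RNA of CD69+ MHC I low and MHC I high thymocytes from 3 mice per genotype (18 samples) was sequenced as single-end reads of 75 bases. The authors mapped them to mm10 with Rsubread and counted them with featureCounts and its inbuilt annotation, as the submitters' processing notes and the study's methods give it. Tool versions and settings for strand and multiple matches are not given in the sources used here. The deposited values are raw whole-number counts per gene. The deposited gene length was used only for RPKM, and a table of the whole series that repeats the counts was not used.

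A gene entered the fit if 3 or more samples reached 0.5 CPM, and Y-linked genes, Xist, gene predictions and entries lacking a symbol were left out. The 12798 genes were fitted by limma 3.58.1 (R 4.3.3, edgeR 4.0.16 for TMM) as log2 CPM with a prior count of 1, in 1 model of 6 groups with sample quality weights, the mouse as a random block, and trended, robust empirical Bayes moderation. Tests were two-sided with Benjamini-Hochberg adjustment over all genes, and 12 comparisons were made. Depth was 10577966 to 16266128 counts per sample. The replicates are separate mice, and replicate pairs differed by more than sampling noise (chi-square per degree of freedom 4.09 to 14.8). Both fractions of a mouse deviated together (r = 0.0702 to 0.256 in 9 of 9 mice), as same-animal samples.

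The members and gene lists were chosen with earlier results of these data known. Named besides the members were the most significant called gene per pathway list and direction in each comparison with WT, 4 receptor chains, the 2 genes most like each member and genes that check labels. One result of the list of other JAK and STAT genes, and the counts over that list, are not reported here. Each result was recomputed with edgeR's quasi-likelihood test, with DESeq2 1.42.0, and with library size scaling, DESeq2 size factors, no filter, at least 10 counts in every sample, no quality weights, no block, the replicate number as a block, only the compared groups, a prior count of 3, a term for Xist, and leaving out each of 9 mice. For comparisons of fractions and of steps, each mouse as a fixed term took the place of the replicate number as a block. The tests were tried on simulated data first. Sequences and names were from RefSeq GRCm38.p6 (25275 of 27179 IDs matched) and exon overlaps from the GENCODE annotation of GRCm38.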

Additional observations from a re-analysis of the deposited data

Results flagged for a closer look

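In 4 cases the step of a member between the fractions differed between genotypes by a test of the difference itself. The step of Cish was larger in Hoil ΔCd4 than in WT by 0.92 (log2, higher in 3 of 3 mice than in any WT mouse) and larger than in Sharpin cpdm by 0.95. The step of Pim1 differed from WT by 0.63 in Hoil ΔCd4 and by 0.46 in Sharpin cpdm mice, again with all 3 mice of each mutant above all WT mice. The tests were adjusted over all genes, and 9 members were tested in each of 3 comparisons. Among all genes tested the step was called for 0.398% (Hoil ΔCd4 against WT), 3.13% (Sharpin cpdm against WT) and 0.805% (between the mutants). Of 21 alternatives, 4 lost the Cish call against WT, 5 the Pim1 call of Hoil ΔCd4 and 8 that of Sharpin cpdm. The edgeR test was among them each time. The Cish call between the mutants stood in 21 of 21.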

How the results depend on the processing

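No member changed direction in a call: of 2268 member values under 21 alternatives, 2207 kept their side of the threshold, 53 lost a call, 8 gained 1 and 0 reversed. The members called between fractions changed by less than 1.5 times in every genotype. Of the 9 members, Hoil ΔCd4 against WT gave 2 called in MHC I low cells with Xist as a covariate instead of 1, and 1 in MHC I high cells by edgeR instead of 3. Sharpin cpdm against WT in MHC I high cells gave 1 by edgeR and 1 without quality weights instead of 2. Between the mutants in MHC I low cells, edgeR, no filter, no block and the replicate block gave 0 instead of 1, and Xist as a covariate 2. The step of Hoil ΔCd4 against WT gave 0 by edgeR, 0 without the filter and 1 without the block instead of 2, that of Sharpin cpdm against WT 0 by edgeR, DESeq2, no filter and no block instead of 1, and that between the mutants 2 with the replicate block instead of 1. With each mouse left out the counts ran from 1 to 2 and 1 to 3 for Hoil ΔCd4 against WT (MHC I low and high), 1 to 2 and 0 to 3 for Sharpin cpdm against WT, 0 to 1 between the mutants in MHC I low cells, 0 to 2 for the step of Hoil ΔCd4 and 0 to 1 for that of Sharpin cpdm against WT. The cause of these changes was not tested. Over all genes, the calls in MHC I high cells fell from 851 to 134 (Hoil ΔCd4) and from 1103 to 238 (Sharpin cpdm) without WT mouse 3. For genotype comparisons the replicate block was the mouse number, the only thing that the labels give same-numbered mice of different genotypes in common. Such pairs had r from -0.0314 to 0.153, positive in 15 of 18, and whether they share a batch was not tested. For fractions and steps the replicate block was each mouse, which pairs the fractions of a mouse. The other member counts with the replicate block stayed within 1.5 times. At these depths Socs2, with at most 7 counts in a sample, did not pass the filter, and without it no difference was called.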
